A study of Mus musculus with 6 samples.

Results

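The cells described here are the contractile Cnn1-high mesenchyme of Day 2 digits in a dish (DID) cultures. They were chosen by a rule on measured values, namely at least 5 unique molecular identifiers (UMIs, each standing for 1 captured RNA molecule) of Cnn1 and at least 0.1% of the UMIs of the cell from S100a6, among barcodes with at least 3000 UMIs, at most 7500 detected genes and at most 25% of UMIs from mitochondrial genes. This gate held 580 of 8949 cells in Day 2 replicate A (6.48%, Clopper-Pearson 95% interval 5.98 to 7.01) and 298 of 9742 cells in Day 2 replicate B (3.06%, 2.73 to 3.42), which makes 878 of 18691 Day 2 cells, in a series of 54126 cells that passed the same limits. The intervals cover counting error only. In each DID culture, mesenchyme dissociated from the distal forelimbs of CD-1 mouse embryos at E11.5 was plated in serum-containing medium and reassembled there, with no scaffold supplied. Cells of 2 separate cultures per time point were captured at Day 2, Day 7 and Day 10 with the 10x Genomics 3' v3.1 chemistry, 1 library per culture. No group carried a mutation or a drug treatment, and the embryos pooled in a culture cannot be told apart in the counts.

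Calponin 1, the product of Cnn1, binds actin filaments and restrains the myosin ATPase in smooth muscle and in other contractile cells such as myofibroblasts. Genes of this contractile apparatus are classically switched on by serum response factor (SRF) with its cofactors of the myocardin family, which are released to the nucleus when actin is polymerised, and by the YAP and TAZ cofactors with the TEAD factors, which respond to tension and spreading. In the limb, such cells are known from vessel walls, from the perichondrium and from connective tissue that is stretched or wounded.

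SRF binds the CArG box (CC, then 6 bases that are A or T, then GG), and TEAD factors bind CATTCC on either strand. The 250 bases before the RefSeq start of 4 genes are shown because Cnn1 chose the cells, Acta2 and Myl9 encode actin and a myosin light chain that act beside calponin, and Ankrd1 is a widely used read-out of YAP. They are RefSeq sequences on GRCm38.p6, read 5' to 3' on the strand of the gene, at chr9:22099003-22099252 (Cnn1, plus strand), chr19:34255374-34255623 (Acta2, minus strand), chr2:156775214-156775463 (Myl9, plus strand) and chr19:36119845-36120094 (Ankrd1, minus strand). The gene spans given further on are those of GENCODE, which begins Cnn1, Acta2 and Ankrd1 earlier, so that the Ankrd1 window and parts of the Cnn1 and Acta2 windows lie inside those spans. Capitals mark an exact match to the CArG box or to CATTCC on either strand. Near matches, such as those to the CArG box in the Acta2 window, were not searched for and are not marked.
Cnn1: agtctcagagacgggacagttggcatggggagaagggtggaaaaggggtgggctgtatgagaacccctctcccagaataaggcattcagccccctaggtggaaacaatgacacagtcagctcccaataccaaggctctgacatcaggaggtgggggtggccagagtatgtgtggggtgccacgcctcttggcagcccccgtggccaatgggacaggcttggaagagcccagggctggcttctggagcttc
Acta2: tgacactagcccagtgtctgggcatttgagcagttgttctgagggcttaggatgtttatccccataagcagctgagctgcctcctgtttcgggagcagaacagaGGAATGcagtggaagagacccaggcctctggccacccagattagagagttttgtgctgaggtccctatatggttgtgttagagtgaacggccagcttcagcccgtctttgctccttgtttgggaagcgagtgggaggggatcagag
Myl9: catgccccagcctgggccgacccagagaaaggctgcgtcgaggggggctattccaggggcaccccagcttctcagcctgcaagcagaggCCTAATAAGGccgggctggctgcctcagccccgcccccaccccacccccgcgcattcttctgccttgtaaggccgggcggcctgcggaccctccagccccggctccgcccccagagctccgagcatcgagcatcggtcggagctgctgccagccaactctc
Ankrd1: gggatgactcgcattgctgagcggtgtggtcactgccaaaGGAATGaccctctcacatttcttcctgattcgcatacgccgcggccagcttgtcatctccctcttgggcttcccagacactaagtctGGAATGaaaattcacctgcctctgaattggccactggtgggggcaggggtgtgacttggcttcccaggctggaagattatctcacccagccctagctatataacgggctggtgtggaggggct
The Myl9 window held 1 CArG box, CCTAATAAGG, whose first base lay 161 bases before the start. The Ankrd1 window held 2 copies of CATTCC, at 210 and 123 bases before the start, and the Acta2 window held 1, at 146 bases. Of 32851 such windows of all genes, 1.47% held a CArG box and 12.6% held CATTCC. In the Cnn1 window neither run of letters occurred, nor in those of S100a6, Spp1, Flt1, Vim, Krt18 and Csrp1, whereas Tagln2 held 2 copies of CATTCC and Tpm1 held 1. A match is a description of the letters and not a binding site.

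The gated cells were the deep end of both libraries. Their median was 44604.5 UMIs and 6234 genes per cell in replicate A and 44461.5 UMIs and 6373.5 genes in replicate B, against 18611 and 12345.5 UMIs in the other cells. Mitochondrial genes gave a median of 1.51% and 1.82% of their UMIs, and 1.88% and 2.22% in the other cells. Because the Cnn1 condition counts UMIs, the share of gated cells moves with depth. Among cells of 20000 to 50000 UMIs, it was 8.82% in replicate A (338 of 3831) and 4.27% in replicate B (129 of 3021). With Cnn1 set at 0.02% of the UMIs of a cell instead of at 5 UMIs, the order of the libraries turned, with 5.60% in replicate A and 6.46% in replicate B. Doublets were not called, and 266 and 149 further barcodes that met both conditions on Cnn1 and S100a6 were left out by the limit of 7500 genes. No barcode was shared between the gated cells of the 2 Day 2 libraries.

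Levels are given as CPM, the UMIs of a gene per 1000000 UMIs summed over the cells of a class in a library, with TMM scaling where not said otherwise, and differences as log2 fold changes of gated minus other cells, tested with edgeR's quasi-likelihood test. The Day 2 contrast compares 2 libraries, but the fit held all 6 libraries, so its p-values rest on a spread shared by the cultures of all time points. A standard error (SE) given here is the size of the log2 fold change over the square root of the F statistic of that test. It rests on the same shared spread and does not measure the spread of the 2 Day 2 cultures. Every test is on genes other than those of the gate. Both gate genes are given as a description. Cnn1 (ENSMUSG00000001349, GENCODE on GRCm38, chromosome 9, 22099216 to 22109630, plus strand) was at 415 and 446 CPM in the gated cells of replicates A and B and at 68.9 and 73.4 CPM in the other cells, with medians of 15 and 14 UMIs per gated cell. S100a6 (ENSMUSG00000001025, chromosome 3, 90612882 to 90624181, plus strand), a calcium-binding protein of spread and migrating cells, was at 2899 and 2798 CPM against 267 and 260. Tagln, Spp1 and Flt1 were named as markers of these cells with earlier results known, so although all 3 passed the test their values here are a description and no independent support. Transgelin, the actin-binding protein of Tagln, was at 5301 and 5188 CPM in the gated cells and at 1093 and 1109 CPM in the others, a log2 fold change of 2.25. Spp1, the secreted phosphoprotein osteopontin, was at 1052 and 792 CPM against 188 and 164 (2.38), and Flt1, a receptor for VEGF, at 57.4 and 70.6 CPM against 14.6 and 14.2 (2.13). In these 3 genes the lower gated library lay above both values of the other cells, and within 20000 to 50000 UMIs the log2 fold changes were 1.98, 2.00 and 1.87.

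Cells next to the limits of the gate were like the gated cells in some genes and unlike them in others. Gated cells with 5 or 6 Cnn1 UMIs (67 in replicate A, 50 in replicate B) had Tagln at 4088 and 4240 CPM and Acta2 at 4014 and 3477 CPM, scaled to library totals. Cells with 3 or 4 Cnn1 UMIs that met the S100a6 condition (102 and 138) had Tagln at 4046 and 4260 CPM and Acta2 at 3645 and 3072. On the other limit, gated cells with 0.10% to 0.12% S100a6 (57 and 34) had Acta2 at 4907 and 5231 CPM, and cells just under it, with 0.08% to 0.10% (87 and 49), had 5514 and 3959 CPM. Other genes stood further apart, though not always in both libraries. In replicate B, Ankrd1 was at 59.0 CPM just inside the S100a6 limit and at 230 CPM just outside it, and Spp1 at 466 and 842 CPM. In replicate A no such gap was seen at that limit, with Ankrd1 at 95.8 and 102 CPM and Spp1 at 1088 and 1069 CPM. At the Cnn1 limit of replicate B, Inhba was at 112 CPM inside and 239 CPM outside, and the median depth of the cells was 21552.5 and 8440 UMIs. In replicate A, Inhba was at 128 and 193 CPM, at median depths of 31850 and 35549.5 UMIs.

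**Figure D1:**
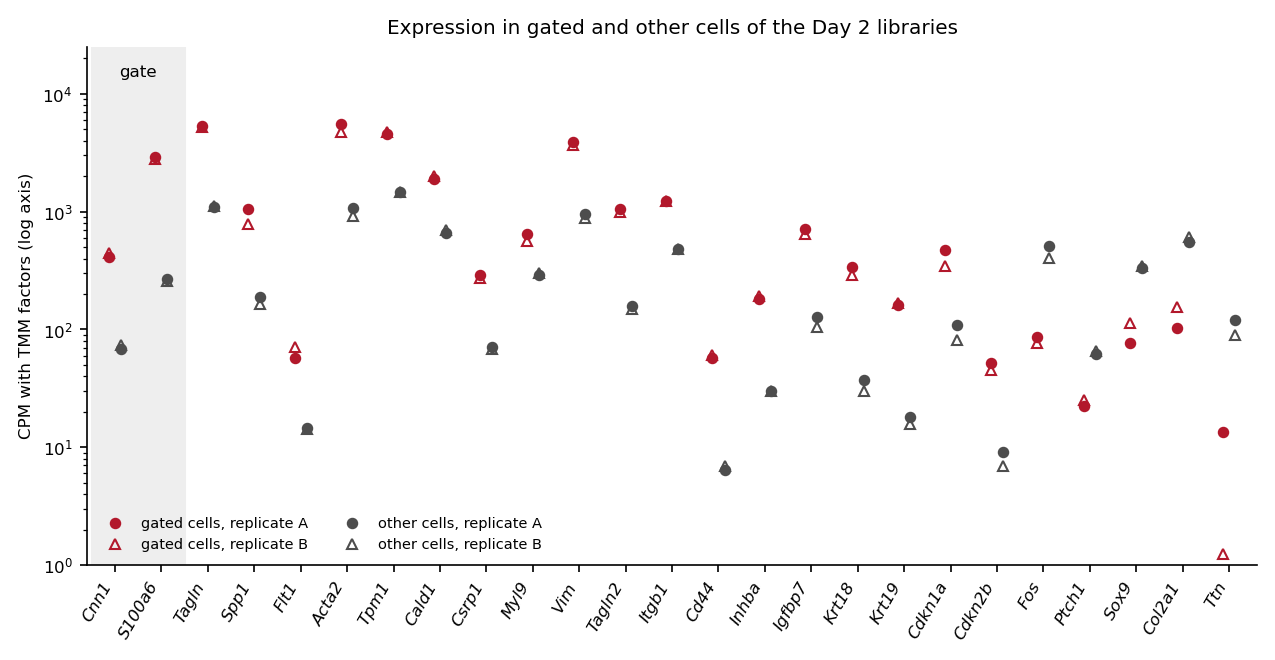
Level of 25 genes in the gated cells (red) and in the other cells (grey) of Day 2 replicates A (circles) and B (triangles), as CPM with TMM scaling on a log axis, with Cnn1 and S100a6 shaded because they chose the cells. Acta2 lies at 5505 and 4752 CPM in gated cells against 1067 and 912 in the others, whereas Ptch1 lies at 22.5 and 25.2 against 61.8 and 65.5.

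The contractile apparatus was higher in the gated cells across most of its parts. Acta2, smooth muscle alpha-actin, was at 5505 and 4752 CPM in the gated cells of replicates A and B and at 1067 and 912 CPM in the other cells, a log2 fold change of 2.37 ± 0.02 (SE, adjusted p = 8.02e-27, edgeR's quasi-likelihood test). Tpm1, a tropomyosin that lies along the actin filament, was at 4577 and 4786 CPM against 1466 and 1462 (1.68, adjusted p = 3.62e-19), and caldesmon, Cald1, which links actin to myosin, at 1910 and 1992 CPM against 663 and 702 (1.52, adjusted p = 1.13e-22). Within the depth window the differences of Acta2, Tpm1 and Cald1 were 2.13, 1.45 and 1.29. Of the 16 genes of this list, 12 were higher and 1 lower, with a median log2 fold change of 1.14, and Tagln is among the 12. In all 18154 genes tested, 28.6% were higher, 28.1% were lower, and the median log2 fold change was -0.06, so a call by itself is common here. Scaled to library totals without TMM factors, 3008 genes were higher and 8410 lower, the median was -0.33, and 11 contractile genes were higher and 1 lower. By at least 2-fold, with TMM factors, 10 of the 16 were higher, against 7.09% of all genes.

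Not every contractile gene moved. Myl9, the regulatory myosin light chain, was at 643 and 569 CPM against 290 and 303 (1.03, adjusted p = 1.5e-06), and Lmod1, an actin nucleator of smooth muscle, at 29.1 and 25.2 CPM against 8.11 and 9.23 (1.68, adjusted p = 7.99e-07). Actg2, the gamma-actin of enteric smooth muscle, was at 81.2 and 70.0 CPM against 24.1 and 24.0 (1.66, adjusted p = 0.00454), a call lost without Day 2 replicate A (1.48). Myh11, the smooth muscle myosin heavy chain that marks the mature state, was at only 5.76 and 4.38 CPM against 3.17 and 2.79, and did not pass the test (0.78, adjusted p = 0.189), although it passed, at the same size, when either Day 10 library was left out. Des, the muscle intermediate filament desmin, was at 29.0 and 24.95 CPM against 29.3 and 21.9 (0.06, adjusted p = 0.916), so its groups overlapped. Mylk, the kinase that switches on myosin light chains, was lower, at 16.003 and 22.9 CPM against 24.4 and 26.2 (-0.42, adjusted p = 0.00164), but within the depth window its log2 fold change was -0.02. Set against cells with 0 Cnn1 UMIs it turned to 0.19.

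The wider actin cytoskeleton rose with these genes. All 20 members of the actin crosslinking list were higher, from 0.43 on the log2 scale in Myh10 to 2.73 in Tagln2, with a median of 1.14. Tagln2, the transgelin of cells other than smooth muscle, was at 1062 and 986 CPM in gated cells and 158 and 150 CPM in the others (adjusted p = 3.78e-15). Vim, the intermediate filament of mesenchyme, was at 3882 and 3652 CPM against 964 and 882 (2.03, adjusted p = 1.57e-25), and Flnc, a filamin of muscle and of strained cells, at 61.2 and 67.2 CPM against 13.6 and 14.3 (2.20, adjusted p = 8.65e-21). Csrp1, a LIM protein of actin bundles, was at 288 and 273 CPM against 70.6 and 67.8 (2.02, adjusted p = 9.72e-23).

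Focal adhesions, the sites at which integrins tie actin to the matrix, showed the same direction, with 18 of 20 genes higher, 1 lower and a median of 1.25. Itgb3, the beta chain of the integrins that bind osteopontin and vitronectin, was at 13.7 and 12.7 CPM in the gated cells and at 1.33 and 1.31 CPM in the others (3.32, adjusted p = 5.06e-17). Itgb1, the common beta chain, was at 1228 and 1226 CPM against 480 and 482 (1.35). The adaptors Pdlim5, Zyx and Vcl differed by 1.59, 1.41 and 1.25. Pxn, paxillin, did not pass the test (0.00, adjusted p = 1), and Itga1, a collagen-binding chain, was lower at 5.36 and 5.76 CPM against 7.64 and 8.96 (-0.56, adjusted p = 9.58e-06), with a log2 fold change of 0.27 once the S100a6 condition was dropped. Of the 8 genes of the osteopontin list, which are Spp1 and its receptors, 7 were higher and 1 lower, with the marker Spp1 among the 7. Cd44, the hyaluronan receptor that also binds osteopontin, was at 57.0 and 60.3 CPM against 6.44 and 6.90 (3.14, adjusted p = 5.13e-21).

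In the list built around SRF and its cofactors, 9 of 10 genes were higher, with a median of 0.92. Only RNA was measured, and whether these factors drive the contractile genes here was not tested. Myocd, myocardin, was at 8.96 and 9.27 CPM in the gated cells and at 1.65 and 1.86 CPM in the others (2.38, adjusted p = 1.08e-11). Vgll3, a cofactor of TEAD factors, was at 67.5 and 59.0 CPM against 10.6 and 11.3 (2.54, adjusted p = 5.88e-09), and the LIM protein Fhl1 at 133 and 131 CPM against 25.3 and 24.0 (2.42, adjusted p = 4.11e-23). Srf itself differed by 0.35, a call lost without Day 2 replicate A (0.13), and Mrtfa by 0.72, whereas Mrtfb did not pass the test (-0.03, adjusted p = 0.742). In the YAP and TEAD list, 11 of 15 genes were higher and 2 lower, with a median of 0.62. Ankrd1 was at 174 and 222 CPM against 12.3 and 27.0 (3.43 ± 0.23, adjusted p = 0.00123), so the other cells of replicate B had well over the level of those of replicate A. Ccn2, a matrix-bound target of YAP and TGF-beta, was at 475 and 545 CPM against 140 and 136 (1.88, adjusted p = 0.000219), but its relative Ccn1 was slightly lower, at 215 and 220 CPM against 251 and 245 (-0.19, adjusted p = 0.00028). Yap1 RNA did not pass the test (0.08, adjusted p = 0.211), and Wwtr1, which encodes TAZ, differed by 0.62.

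TGF-beta ligands and the activin subunit Inhba were higher, and the receptors Tgfbr2 and Tgfbr3 were lower. Tgfb1 was at 45.9 and 47.8 CPM in the gated cells and at 10.1 and 9.42 CPM in the others (2.25, adjusted p = 3.62e-20), with Tgfb3 at 1.35 and Tgfb2 at 0.70 on the log2 scale. Inhba, the subunit of activin A, was at 180 and 192 CPM against 29.9 and 29.9 (2.64, adjusted p = 1.11e-20), and Fst, the secreted antagonist of activin, at 325 and 301 CPM against 83.8 and 83.3 (1.91, adjusted p = 0.000867). Tgfbr2 and Tgfbr3 differed by -0.49 and -1.54, the latter at 0.807 and 1.17 CPM against 2.58 and 2.95. In all, 12 of 16 genes of the list were higher and 3 lower, with a median of 0.81. Skil, a feedback inhibitor of SMADs, was higher by only 0.11, lost its call without either Day 2 library (0.03 and 0.08) and turned to -0.16 without TMM scaling.

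**Figure D2:**
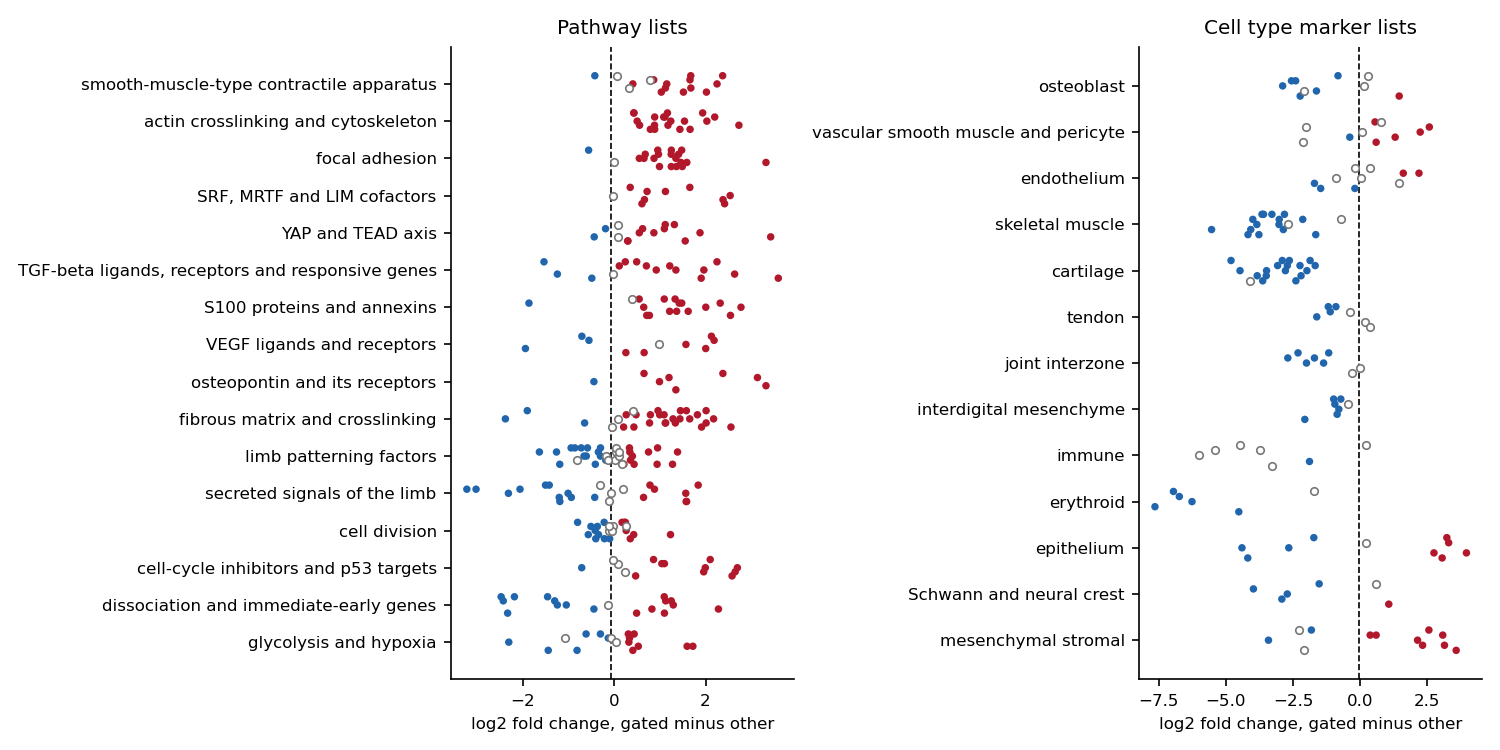
Log2 fold change of gated minus other Day 2 cells for the tested members of each pathway list (left) and each cell type list (right), where filled points passed the test (red higher, blue lower), open points did not, and the dashed line is the median of all genes tested, -0.06. Genes with no UMI in the gated cells are left out. All 20 actin genes lie to the right, and all tested skeletal muscle genes lie to the left.

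Genes of the fibrous matrix and of its crosslinking were mostly higher, with 23 of 29 genes higher, 3 lower and a median of 1.09. Col1a1, the main chain of type I collagen, was at 1106 and 1123 CPM against 391 and 425 (1.45, adjusted p = 0.000274). Fn1, fibronectin, was at 905 and 976 CPM against 346 and 347 (1.44), and Igfbp7, a secreted protein of activated fibroblasts and vessels, at 717 and 645 CPM against 127 and 105 (2.56, adjusted p = 2.48e-09). Postn, which crosslinks collagen in perichondrium and tendon, was at 45.5 and 40.9 CPM against 9.97 and 9.14 (2.18). Col3a1, at 221 and 200 CPM against 186 and 215, did not pass the test (0.08, adjusted p = 0.639). The small proteoglycan lumican, Lum, was lower, at 5.25 and 4.30 CPM against 25.5 and 25.9 (-2.38).

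The list of S100 proteins and annexins, which bind calcium at the inner face of the membrane, also holds the galectin genes Lgals1 and Lgals3. Of its 17 genes, 15 were higher and 1 lower, with a median of 1.33. This list does not include S100a6. Anxa1 was at 460 and 417 CPM against 65.5 and 62.5 (2.78, adjusted p = 1.35e-06), Anxa3 at 265 and 260 CPM against 46.3 and 43.5 (2.55), and S100a4, a marker of motile fibroblasts, at 48.2 and 58.7 CPM against 10.6 and 10.5 (2.32). S100b, of cartilage and glia, was lower at 0.991 and 0.876 CPM against 3.33 and 3.76 (-1.87, adjusted p = 0.0415), a call that was lost without either Day 2 or either Day 7 library (-2.17 to -1.80).

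Of the VEGF system, Nrp1 and the receptor Kdr were higher, and the ligand Vegfa was lower. Nrp1, a coreceptor of VEGF and semaphorins, was at 112 and 122 CPM in gated cells and 28.5 and 29.9 CPM in the others (2.00, adjusted p = 3.57e-21). Kdr, the main signalling receptor, was at 1.91 and 0.803 CPM against 0.296 and 0.327 (2.19), a call that did not hold without Day 2 replicate A (1.22) or within the depth window (1.25). Vegfa was at 14.9 and 14.7 CPM against 24.6 and 23.6 (-0.71, adjusted p = 2.58e-10). Of the 10 genes, 6 were higher, the marker Flt1 among them, and 3 lower, and without Day 2 replicate A only 3 were higher. After every cell was thinned to 3000 UMIs, Flt1 was expected in 13.7% and 16.2% of gated cells, in 4.07% and 5.18% of the other cells and in 0.528% and 0.24% of cells with at least 2 Myod1 UMIs, which stand here for cells that should lack it. Unthinned, 62.8% of the gated cells of replicate A held a Flt1 UMI.

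The genes with the largest differences by a rule (called, at least 50 CPM in the higher class in both libraries) were led by Ccl2, a chemokine that draws monocytes, at 140 and 90.1 CPM against 9.12 and 6.71 (3.86, adjusted p = 1.03e-22). Others of this set were Ly6a, Stmn4 (3.52), which binds tubulin, Hbegf (3.49), a ligand of the EGF receptor at 288 and 300 CPM against 27.9 and 24.2, and Plaur (3.47), the receptor of urokinase. Cav1, which shapes caveolae, was at 97.9 and 108 CPM against 11.02 and 10.7 (3.24). Ptgs2, the inducible cyclooxygenase, was at 59.5 and 64.9 CPM against 6.01 and 7.93 (3.18), and the small heat shock proteins Hspb1 and Cryab differed by 3.17 and 2.70. Tm4sf1, Pdlim1, Gata3, Fxyd5, Tinagl1, Gask1b, Sat1 and Pmaip1 were also among the leading 25, of which 1 is a predicted gene that is not named. Of these genes, Hspb1 stood at 817 and 651 CPM and Tm4sf1 at 483 and 433 CPM in the gated cells. This ranking is against all other cells. Against cells that met only the S100a6 condition, described below, 0.268% of genes tested were at least 2-fold higher. None of the leading genes was among the 5 largest rises there, the smallest of which was 1.02 in Cdo1.

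Keratins of simple epithelium were among the leading genes. Krt18 was at 338 and 288 CPM in the gated cells and 37.1 and 29.8 CPM in the others (3.22, adjusted p = 3.09e-13), with a log2 fold change of 2.36 within the depth window. Its partner Krt8 was at 62.2 and 34.4 CPM against 5.59 and 5.91 (3.05, adjusted p = 0.00133), and Krt19 at 162 and 169 CPM against 18.0 and 15.6 (3.29, adjusted p = 0.000608). In the epithelial list, 5 of 12 genes tested were higher and 6 lower, and the summed level was 564 and 494 CPM against 68.4 and 57.7, nearly all from these keratins. Krt5 and Krt14, the keratins of the basal ectoderm, had no UMI in the gated cells, Trp63 (p63) was lower by -4.40 and Epcam by -1.73. All other cells together held 263 and 69 Krt5 UMIs and 9 and 69 Krt14 UMIs. Krt18 was unevenly spread among the gated cells of replicate A, with a median of 60.1 CPM per cell and a 95th percentile of 1682 CPM.

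The label of contractile mesenchyme was checked against markers of other cell types. The paper annotated a Day 2 cluster as osteoblasts by its expression of Cnn1, Igfbp7 and Spp1. None of these is in the osteoblast list used here. Cnn1 chose the gated cells, and Igfbp7 and Spp1 were higher in them, as given above. Whether the gated cells are those of that cluster was not tested. Of 11 osteoblast genes tested, 1 (Col1a1) was higher and 6 lower. Sp7, the osteoblast regulator osterix, was at 0.294 and 0.365 CPM in the gated cells and at 1.65 and 1.76 CPM in the others (-2.41, adjusted p = 2.86e-07), Alpl, alkaline phosphatase, at 0.367 and 0.584 CPM against 3.03 and 3.74 (-2.89, adjusted p = 0.00169, call lost without Day 2 replicate A at -2.75), and Runx2 at 16.2 and 15.3 CPM against 27.5 and 29.3 (-0.83). Ibsp, bone sialoprotein, was detected in 0 of 580 and 0 of 298 gated cells, which allows a share of cells with an Ibsp UMI of up to 0.517% and 1.01% and sets no limit on cells that express it below detection. All other cells together held only 18 and 49 Ibsp UMIs, so its absence hardly sets the classes apart.

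Markers of vascular smooth muscle and pericytes gave a mixed picture, with 5 of 11 genes tested higher, 2 lower (1 without Day 2 replicate A), and a summed level of 188 and 181 CPM against 109 and 108. Rgs5, a regulator of G protein signalling in pericytes, was at 46.0 and 37.1 CPM in the gated cells and at 7.38 and 6.65 CPM in the others (2.57, adjusted p = 2.1e-19), and Mcam differed by 1.30. Notch3, the Notch receptor of mural cells, was lower by -0.39, and the pericyte gene Kcnj8 had no UMI in gated cells, with 32 and 36 UMIs in all other cells together, while Higd1b had 0 UMIs in both classes of both libraries. Of 11 endothelial genes tested, 2 were higher (Kdr and Plvap, the latter by 1.60, at 1.84 and 1.31 CPM against 0.527 and 0.543), 4 lower and 5 not called, with a median of -0.18, and without Day 2 replicate A 0 were higher. Their summed level was 34.0 and 32.1 CPM against 67.2 and 63.3, with Pecam1 at 0.367 and 0.292 CPM, Cdh5 at 0.22 and 0 CPM, and Cldn5 and Sox17 at 0. All other cells together held only 27 and 14 Cldn5 UMIs and 5 and 1 Sox17 UMIs. In the mesenchymal stromal list, 8 of 12 genes were higher and 2 lower, with a median of 1.36. Ly6a, which encodes Sca-1, was at 97.4 and 113 CPM against 8.65 and 8.94 (3.57, adjusted p = 5.11e-08), and Mfap5 and Thy1 were higher by 3.07 and 2.56, the latter not called without Day 2 replicate A (2.405). Pdgfra, the receptor of most limb fibroblasts, was lower, at 16.2 and 21.7 CPM against 62.4 and 68.3 (-1.82, adjusted p = 4.62e-10).

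Genes of cartilage and skeletal muscle were nearly all lower, although fewer passed the test without Day 2 replicate A. Of 18 cartilage genes, 0 were higher and 17 lower (11 lower without Day 2 replicate A), with a median of -2.84 and summed levels of 444 and 586 CPM against 2589 and 2742. Sox9, the regulator of chondrocytes, was at 77.4 and 114 CPM against 333 and 347 (-1.87, adjusted p = 0.002), and Col2a1, cartilage collagen, at 103 and 156 CPM against 558 and 607 (-2.20, adjusted p = 0.00357). Skeletal muscle genes were lower in 15 of 17, with a median of -3.29, and in 9 without Day 2 replicate A, with a median of -4.53. Ttn, titin, was at 13.4 and 1.24 CPM against 121 and 89.6 (-3.66, adjusted p = 0.0088), and Mylpf, the fast myosin light chain, at 8.92 and 2.70 CPM against 131 and 90.1 (-4.14). In both genes the gated cells of replicate A held more than those of replicate B, and the Mylpf call was lost without either Day 2 library (-5.13 without replicate A, -3.93 without replicate B). The 15 largest falls by the same rule were mostly in genes of cartilage or muscle, and included Mia at 11.3 and 9.19 CPM against 156 and 141 (-3.84), Tnnc1 (-3.54, call lost without Day 2 replicate A at -4.40), Matn4 (-3.49) and Col9a2 (-2.90).

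Joint and interdigital genes were mostly lower, and of the 8 tendon genes 4 were lower and 4 did not pass the test, with a median of -1.01. Scx, the regulator of tendon progenitors, was at 67.1 and 55.5 CPM in gated cells and 122 and 108 CPM in the others (-0.91, adjusted p = 0.00343). Tnmd, tenomodulin, overlapped between the groups, at 11.7 and 5.91 CPM against 10.7 and 14.9 (-0.36, adjusted p = 0.498), although without Day 2 replicate A it was called lower (-1.40). Of the 8 joint interzone genes 6 were lower, with a median of -1.54, among them Gdf5 at 4.04 and 3.65 CPM against 20.6 and 17.3 (-2.32, adjusted p = 2.82e-15). Of the 7 interdigital genes 6 were lower, with a median of -0.86. Immune genes summed to 2.79 and 2.19 CPM against 26.3 and 13.4, hemoglobin and other erythroid genes to 0.404 and 1.46 CPM against 58.5 and 135, and Schwann cell genes to 10.1 and 11.2 CPM against 18.5 and 18.8.

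Limb patterning factors differed in both directions, with 11 of 37 higher, a share near that of all genes (28.6%), and 17 lower, against 28.1% of all genes. Prrx2, a homeobox gene of limb fibroblasts, was at 391 and 381 CPM against 151 and 144 (1.39, adjusted p = 7.19e-21), and Msx2, a target of BMP, at 74.5 and 76.8 CPM against 33.9 and 28.2 (1.28, adjusted p = 5.48e-11). The autopod gene Hoxd13 was at 13.5 and 14.8 CPM against 27.9 and 25.5 (-0.94, adjusted p = 4.19e-11), and Hoxa13 at 10.8 and 12.8 CPM against 19.9 and 17.9 (-0.72). Within the depth window these fell to -0.46 and -0.01, so the Hoxa13 difference was not seen there, and the cause was not tested. Sall1 was lower by -1.26 and Tfap2b by -1.64.

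Gli1 and Ptch1 were lower in the gated cells. Gli1, a direct target of Hedgehog signalling, was at 0.991 and 1.09 CPM in the gated cells and at 9.08 and 10.7 CPM in the others (-3.23, adjusted p = 2.37e-13), and Ptch1, the receptor and feedback target, at 22.5 and 25.2 CPM against 61.8 and 65.5 (-1.42, adjusted p = 4.74e-14). Shh itself had 0 UMIs in both classes of both libraries. Secreted signals of the limb were higher in 7 of 22, near the share of all genes, and lower in 11. Grem1, the BMP antagonist, was at 29.7 and 28.5 CPM against 7.64 and 8.90 (1.84, adjusted p = 0.001), Rspo3, an enhancer of WNT signalling, at 157 and 153 CPM against 52.0 and 51.3 (1.59, adjusted p = 1.84e-18), and Bmp4 at 161 and 200 CPM against 60.3 and 59.6 (1.58, adjusted p = 0.000868). Chrdl1 and Bmp7 were lower by -3.03 and -2.06.

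Most genes in the list of cell-cycle inhibitors and p53 targets were higher in the gated cells. Their summed level was nearly the same, at 2298 and 1958 CPM against 2270 and 2001 CPM, since the abundant Cdkn1c was lower. Cdkn1a (p21) was at 473 and 344 CPM against 109 and 80.8 (2.10, adjusted p = 2.57e-11), with a log2 fold change of 1.30 within the depth window. Cdkn2a and Cdkn2b, the INK4 genes, were at 23.0 and 17.3 CPM against 3.77 and 2.62 (2.65, adjusted p = 0.000178), and at 51.9 and 45.5 CPM against 9.19 and 6.99 (2.58, adjusted p = 4e-20). Cdkn1c (p57) was lower, at 1169 and 1032 CPM against 1915 and 1690 (-0.71, adjusted p = 0.0248), a call lost without either Day 2 or either Day 7 library (-0.78 to -0.72). With the p53 targets Gdf15 (2.70), Ccng1 (2.00) and Phlda3 (1.96), 10 of 14 genes of this list were higher and 1 lower, with a median of 1.07. Thinned to 3000 UMIs, 45.5% and 41.1% of gated cells were expected to hold Cdkn1a, 12.5% and 17.5% of the other cells, and 67.4% and 57.8% of Myod1-positive cells.

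Cell division genes, as a list, had no direction that held under every setting, and the median was 0.06 with no S100a6 condition. Mki67 was at 99.3 and 110 CPM against 180 and 183 (-0.80, adjusted p = 0.00209) and at -1.33 on the log2 scale within the depth window. Of the 22 genes, 7 were higher and 10 lower over all cells, but 1 was higher and 20 lower within the window, with a median of -0.45, and 1 was higher and 14 lower without TMM factors. Over all genes, calls in both directions numbered 10308 in the main fit and 7823 within the window. They numbered 11418 without TMM factors, most of them lower, and 4333 after thinning to 3000 UMIs. Counts of the list are therefore not like for like between settings. With every cell thinned to 3000 UMIs, 5 were higher and 8 lower (median -0.19), and without Day 2 replicate A 1 was higher and 7 lower (3 and 9 without replicate B). Cdk1, the mitotic kinase, was at 159 and 153 CPM against 124 and 120 (0.35), and turned to -0.33 within the window, but stayed at 0.32 after thinning. The window also selects cells by size, and the cause of the turn was not tested. Ccnb1, Ccna2, Plk1 and Aurka turned likewise, to -0.53, -0.44, -0.42 and -0.31, and their calls were lost without either Day 2 library, that of Cdk1 without Day 2 replicate A (0.27).

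Immediate-early genes divided. Fos was at 86.6 and 77.2 CPM against 510 and 400 (-2.48, adjusted p = 0.000252), Egr1 at 93.9 and 93.5 CPM against 426 and 426 (-2.19, adjusted p = 8.05e-18), and Klf2, a gene of flow and quiescence, differed by -2.33. Ier3 was at 232 and 202 CPM against 46.4 and 42.7 (2.28, adjusted p = 3.59e-06) and Atf3 was higher by 1.25. In all, 8 of 18 genes were higher and 9 lower. Some of these genes are also induced when tissue is dissociated into single cells, and the part of the dissociation in these values was not tested. The glycolysis and hypoxia list gave 8 higher and 6 lower of 17, with a median of 0.05.

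The gated cells were next compared with cells that met only 1 condition of the gate and with Tnmd-positive cells. At Day 2, 926 and 718 cells met the Cnn1 condition with S100a6 under 0.1% (Cnn1-only). Another 309 and 1152 met the S100a6 condition with fewer than 5 Cnn1 UMIs and fewer than 2 Tnmd UMIs (S100a6-only). A further 230 and 296 cells had at least 2 Tnmd UMIs and fewer than 5 Cnn1 UMIs (Tnmd-positive). Cells with at least 2 Tnmd UMIs and more Cnn1 are thus not in the Tnmd-positive class. The median depths of these classes, in that order, were 33574.5 and 35235.5 UMIs, 28922 and 5282 UMIs, and 27701.5 and 21777 UMIs. The S100a6-only cells of replicate B were thus far shallower than those of replicate A. Cells of replicate B that met the S100a6 condition with 3 or 4 Cnn1 UMIs, at any Tnmd count, had Cnn1 at 217 CPM. Gated cells of replicate B with 5 or 6 Cnn1 UMIs had it at 207 CPM. In replicate A these values were 96.7 and 153 CPM, and all 4 are scaled to library totals. The S100a6-only class of replicate B may thus hold cells with the Cnn1 share of gated cells, and the values against that class carry this limit. Acta2 was at 5532 and 4795 CPM in the gated cells, at 3104 and 2484 CPM in Cnn1-only cells (gated higher by 0.89, adjusted p = 2.12e-05), at 2644 and 2229 CPM in S100a6-only cells (1.08, adjusted p = 3.77e-05), at 1676 and 1607 CPM in Tnmd-positive cells and at 509 and 470 CPM in the remaining cells. In each library the order of Acta2 was gated, Cnn1-only, S100a6-only, Tnmd-positive and remaining cells, and the difference between the Cnn1-only and S100a6-only cells was not tested.

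**Figure D3:**
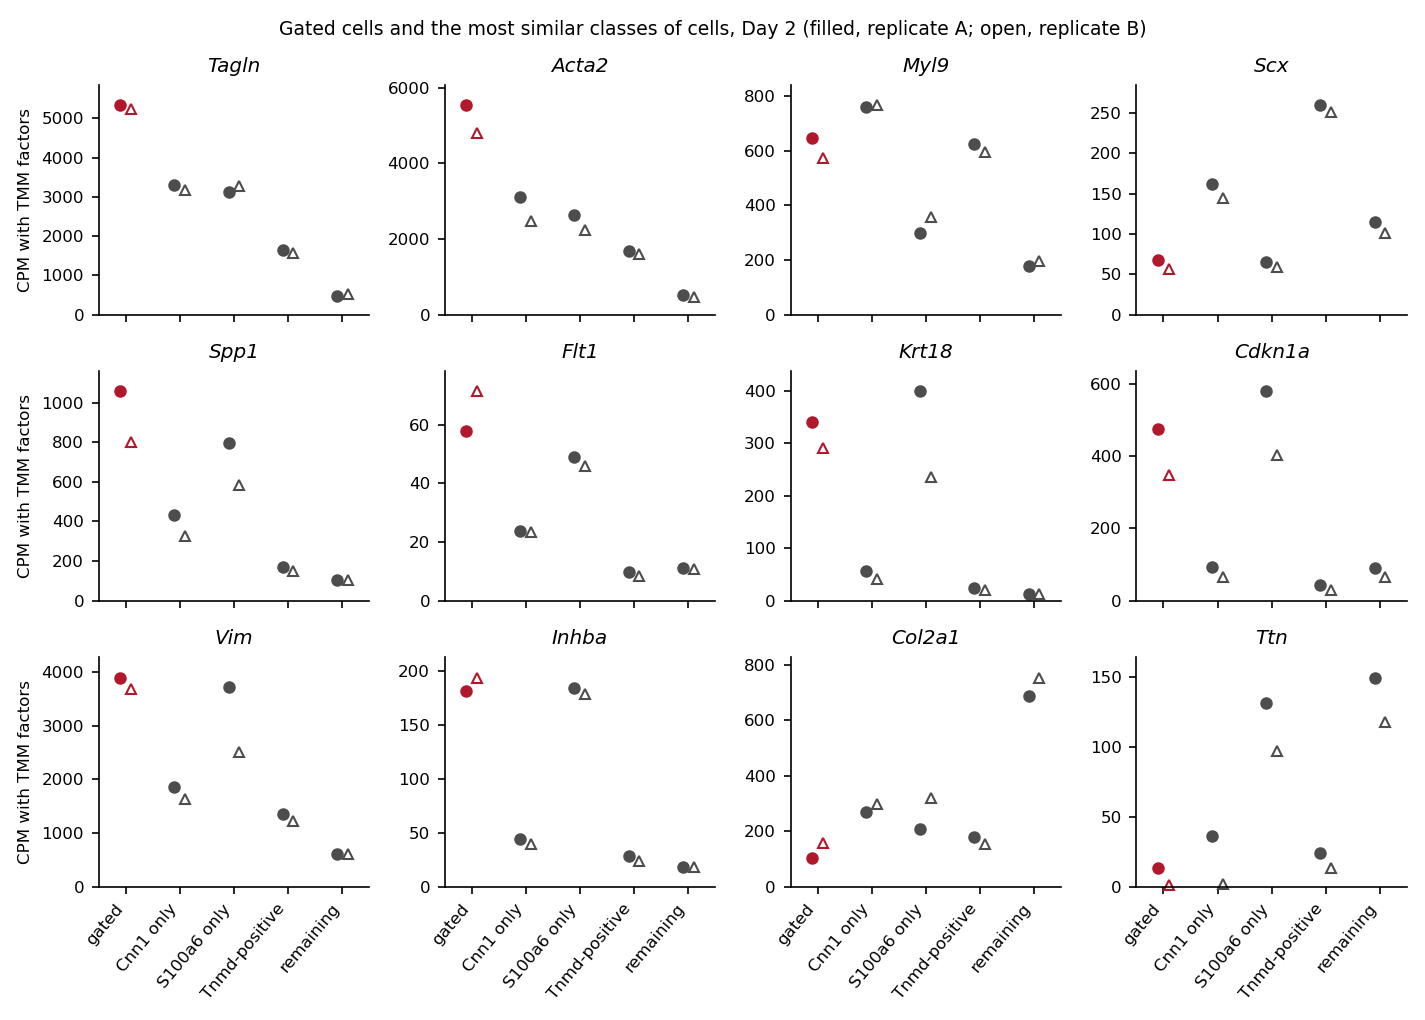
Level of 12 genes in 5 classes of Day 2 cells (gated, Cnn1-only, S100a6-only, Tnmd-positive, remaining), as CPM with TMM scaling on linear axes, with circles for replicate A and triangles for replicate B. Acta2 is highest in the gated class (5532 and 4795 CPM), Myl9 is highest in the Cnn1-only class (759 and 765 CPM), and Krt18 is high in the gated and S100a6-only classes only.

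Against Cnn1-only cells, the gated cells differed in most contractile genes, though in both directions, and in other lists. Of 16780 genes tested, 20.6% were higher and 21.3% lower (3461 and 3568 genes, but 2170 and 2318 without Day 2 replicate A). Of the 16 contractile genes, 10 were higher and 4 lower, with a median of 0.36. Myl9 was at 646 and 574 CPM in gated cells but at 759 and 765 CPM in Cnn1-only cells (-0.32, adjusted p = 0.0019), and Mylk at 16.1 and 23.1 CPM against 42.6 and 45.2 (-1.21, adjusted p = 3.8e-10). For Actg2, at 81.5 and 70.6 CPM against 88.2 and 77.4, the difference was -0.11 and did not pass the test (adjusted p = 0.73). S100 proteins, annexins and galectins were higher in 15 of 17 with a median of 0.90, and cell-cycle inhibitors and p53 targets in 11 of 14 with a median of 1.06. Krt18 was at 339 and 290 CPM against 55.7 and 41.5 (2.70, adjusted p = 3.24e-06), Cdkn1a at 475 and 347 CPM against 93.0 and 64.6 (2.39, adjusted p = 2.97e-08), and Cryab at 181 and 106 CPM against 10.6 and 6.62 (4.05). Scx was lower, at 67.5 and 56.0 CPM against 162 and 144 (-1.30). The 5 largest falls were in Aspn (-2.34), Pcp4 (-2.10), Gas2 (-1.97), Klf2 (-1.79) and Foxp2 (-1.74).

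Against S100a6-only cells, most contractile genes were higher. Here 6.2% of genes tested were higher and 5.3% lower, and by at least 2-fold only 0.268% were higher and 2.51% lower. The 1040 higher and 889 lower genes behind these shares depend on single libraries, with 645 and 392 without Day 2 replicate B and 547 lower without Day 2 replicate A, and on the fit, with 611 higher without the library as a block and 1733 without the filter on low counts. Of 16 contractile genes, 13 were higher and 0 lower, with a median of 0.64, and of 20 focal adhesion genes 15 were higher and 0 lower (median 0.42). Myl9 was at 646 and 574 CPM against 298 and 356 (0.90, adjusted p = 9.11e-07), and Actg2 at 81.5 and 70.6 CPM against 21.4 and 30.2 (1.57, adjusted p = 0.00413). Krt18, at 339 and 290 CPM against 398 and 236, did not pass the test (0.01, adjusted p = 0.998) and stood lower in replicate A and higher in replicate B. Cdkn1a, at 475 and 347 CPM against 580 and 405, was below the S100a6-only cells in both libraries but did not pass the test (-0.26, adjusted p = 0.29). Fibrous matrix genes were higher in 21 of 29 and lower in 2. In other lists fewer genes passed the test. S100 proteins, annexins and galectins were higher in 4 of 17 and lower in 1 (median 0.05), and TGF-beta genes higher in 4 of 16 (0.06). Mesenchymal stromal genes were higher in 1 of 12 (-0.11). Cell-cycle inhibitors and p53 targets were higher in 1 and lower in 3 of 14 (-0.16), and epithelial genes higher in 0 and lower in 3 of 12. Besides Acta2 and Actg2, the largest rises were in Rcan1 (1.12), Tgfb3 (1.06) and Cdo1 (1.02). All of the 5 largest falls were genes of skeletal muscle, led by Mylpf at 8.96 and 2.72 CPM against 221 and 88.0 (-4.65), and 15 of 17 skeletal muscle genes were lower.

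Against Tnmd-positive cells, 22.1% of genes were higher and 19.8% lower, and 9 contractile genes were higher and 1 lower, while 20 of 20 actin genes were higher. Acta2 was higher by 1.65, whereas Myl9 was at 646 and 574 CPM against 625 and 596 (0.00, adjusted p = 0.997). Of 7 tendon genes 6 were lower, with Scx at 67.5 and 56.0 CPM against 259 and 251 (-2.04). The largest rises were in Stmn4 (5.55), Ly6a (4.84), Krt19 (4.65), Tinagl1 (4.63) and Cryab (4.58). Igf1, a growth factor of connective tissue, fell most, at 5.72 and 6.63 CPM against 110 and 90.3 (-4.04).

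Levels within the gated cells are given by their share of Cnn1, which is a value the gate used. Since a cell needs 5 Cnn1 UMIs to pass, cells with a low share had to be deep, and the median depth was 48730, 43320 and 41754 UMIs from the lowest to the highest part in replicate A and 49294, 43489 and 38960 UMIs in replicate B. When the gated cells of each library were split into 3 parts of like size by the share of Cnn1, Acta2 was at 4044, 5519 and 7406 CPM (library totals) from the lowest to the highest part in replicate A and at 3877, 4700 and 6493 CPM in replicate B. Myl9 was at 478, 649 and 854 CPM in replicate A and at 431, 607 and 771 CPM in replicate B, and Myocd at 5.26, 9.36 and 13.2 CPM and at 5.62, 9.81 and 14.6 CPM. All these genes were ordered alike in both libraries. Spp1 was lowest where Cnn1 was highest, at 1320, 1142 and 672 CPM in replicate A and at 907, 915 and 575 CPM in replicate B. Scx declined from 82.1 to 47.3 CPM and from 67.8 to 39.98 CPM between the lowest and the highest part. These are descriptions of cells that share a library, with no test, and the part of depth in them was not tested.

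**Figure D4:**
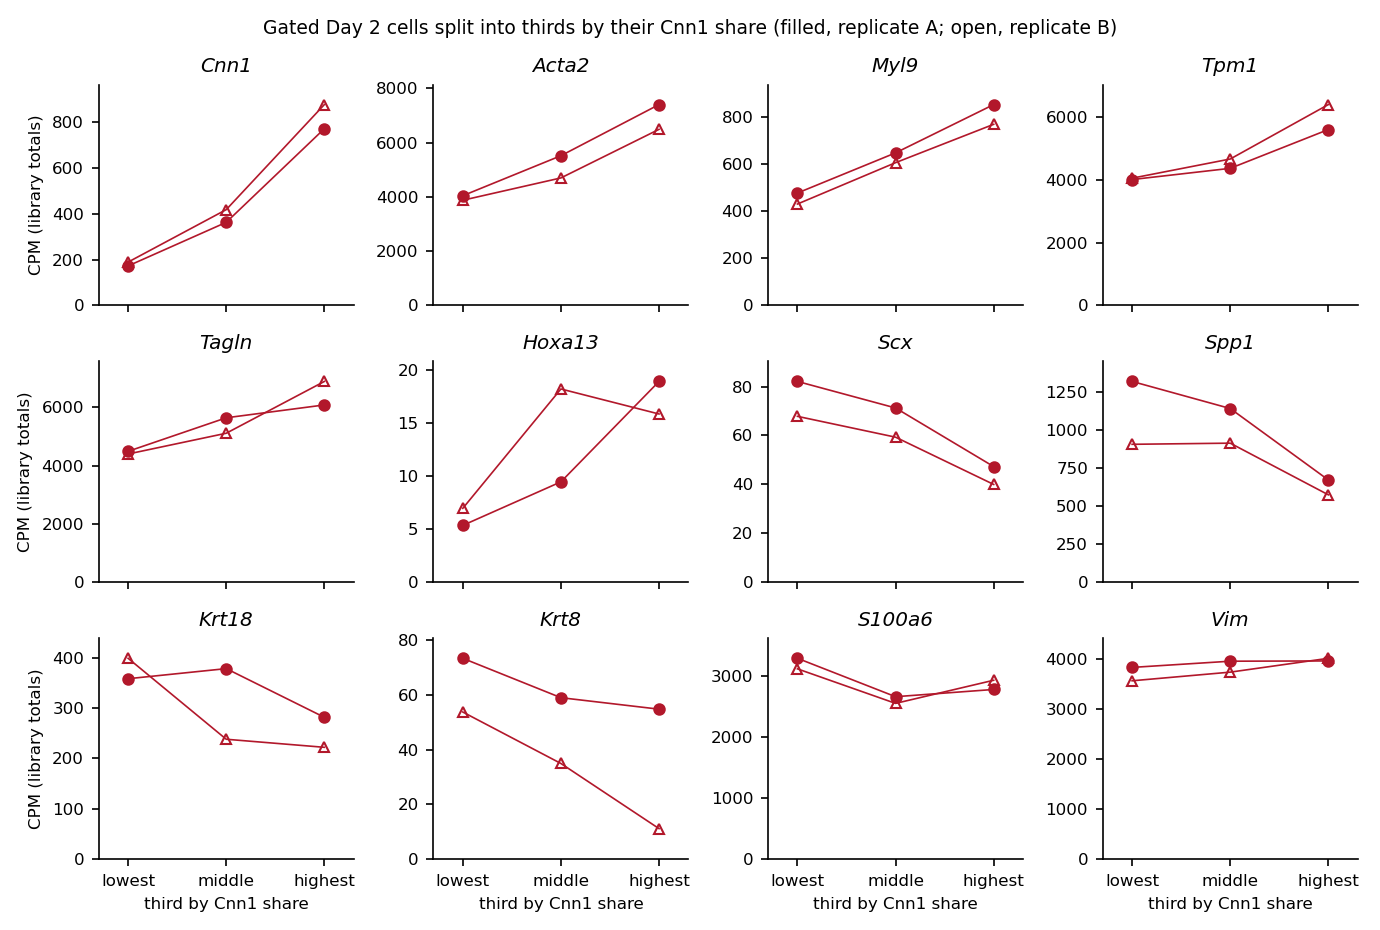
Level of 12 genes in the gated Day 2 cells of replicates A and B, split into 3 parts of like size by the share of Cnn1 in each cell, as CPM of library totals (circles, replicate A; triangles, replicate B). Acta2 climbs from 4044 to 7406 CPM in replicate A and from 3877 to 6493 CPM in replicate B, while Spp1 drops from 1320 to 672 and from 907 to 575 CPM.

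Spearman correlations across the 580 and 298 gated cells, on shares of UMIs, are likewise a description. Cnn1 correlated with Acta2 at 0.46 and 0.37, with Myl9 at 0.42 and 0.40, with Tpm1 at 0.37 and 0.37, with Spp1 at -0.24 and -0.18 and with S100a6 at -0.02 and -0.10. S100a6 instead went with Vim at 0.50 and 0.35, with Cdkn1a at 0.42 and 0.35, with Krt19 at 0.34 and 0.38, and with Myl9 at -0.25 and -0.32. The depth of the cell correlated with the Cnn1 share at -0.22 and -0.25 and with the S100a6 share at 0.24 and 0.33, and both genes were subject to the limits of the gate. Krt18 correlated with Krt8 at 0.45 and 0.42 and with Spp1 at 0.37 and 0.33. Spp1 varied widely from cell to cell, with a median of 297 CPM, a 5th percentile of 0 and a 95th percentile of 4325 CPM in replicate A, whereas Acta2 was found at 1509 CPM even at the 5th percentile. Thinned to 3000 UMIs, 53.7% and 50.7% of gated cells were expected to hold Spp1, against 14.8% and 23.0% of the other cells and 4.22% and 3.06% of Myod1-positive cells.

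The same gate was applied to the later cultures. At Day 7 it held 927 and 880 cells (9.91% and 9.39%), and at Day 10 it held 1315 and 1226 cells (15.7% and 14.7%), of libraries with other depths. Acta2 in gated cells was at 5505 and 4752 CPM at Day 2, at 5192 and 5629 CPM at Day 7 and at 7393 and 7449 CPM at Day 10. In the other cells it was at 1067 and 912, at 427 and 448, and at 991 and 957 CPM, so that the log2 fold change was larger by 1.25 at Day 7 and by 0.56 at Day 10 than at Day 2. Over all 18154 genes, the difference between gated and other cells was more positive than at Day 2 in 20.4% at Day 7 and 16.4% at Day 10, and more negative in 18.8% and 21.7%. This balance depends on the TMM factors. Without them, positive changes far outnumbered negative ones at both later days, with the counts given further on. The 3421 and 3944 genes with a more negative difference numbered 2099 and 2399 without Day 2 replicate A. Day 2 gated cells enter both of these comparisons.

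Actg2 and Myh11 differed more between gated and other cells later than at Day 2. The test is of that difference, and the levels of gated cells were not tested between days. Actg2 in gated cells was at 81.2 and 70.0 CPM at Day 2, at 274 and 365 CPM at Day 7 and at 479 and 560 CPM at Day 10. Myh11 in gated cells was at 5.76 and 4.38, at 10.7 and 10.6, and at 8.67 and 9.81 CPM, while in the other cells it went from 3.17 and 2.79 CPM at Day 2 to 0.403 and 0.201 CPM at Day 7 and 0.2 and 0.637 CPM at Day 10, a change of the difference by 4.36 (adjusted p = 0.00789, edgeR's quasi-likelihood test) and 3.73 (adjusted p = 0.0111). Krt18 was highest at Day 2, at 338 and 288 CPM, and lay at 98.6 and 106 CPM in the gated cells of Day 7 and at 62.0 and 67.3 CPM in those of Day 10. Krt19 likewise was at 162 and 169, at 37.1 and 34.8, and at 22.8 and 18.4 CPM.

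The Cdkn1a difference was largest at Day 2. Cdkn1a was at 473 and 344 CPM against 109 and 80.8 at Day 2, at 278 and 310 CPM against 255 and 244 at Day 7 and at 420 and 452 CPM against 457 and 507 at Day 10, which changed the difference by -1.87 at Day 7 and -2.24 at Day 10 on the log2 scale. Spp1 in the gated cells was at 1052 and 792 CPM at Day 2, at 1489 and 1579 CPM at Day 7 and at 2277 and 2381 CPM at Day 10. In the other cells Spp1 went from 188 and 164 CPM to 339 and 338 CPM and then to 1282 and 1389 CPM. Cdkn2a in the gated cells was at 23.0 and 17.3, at 74.6 and 84.7, and at 208 and 218 CPM.

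**Figure D5:**
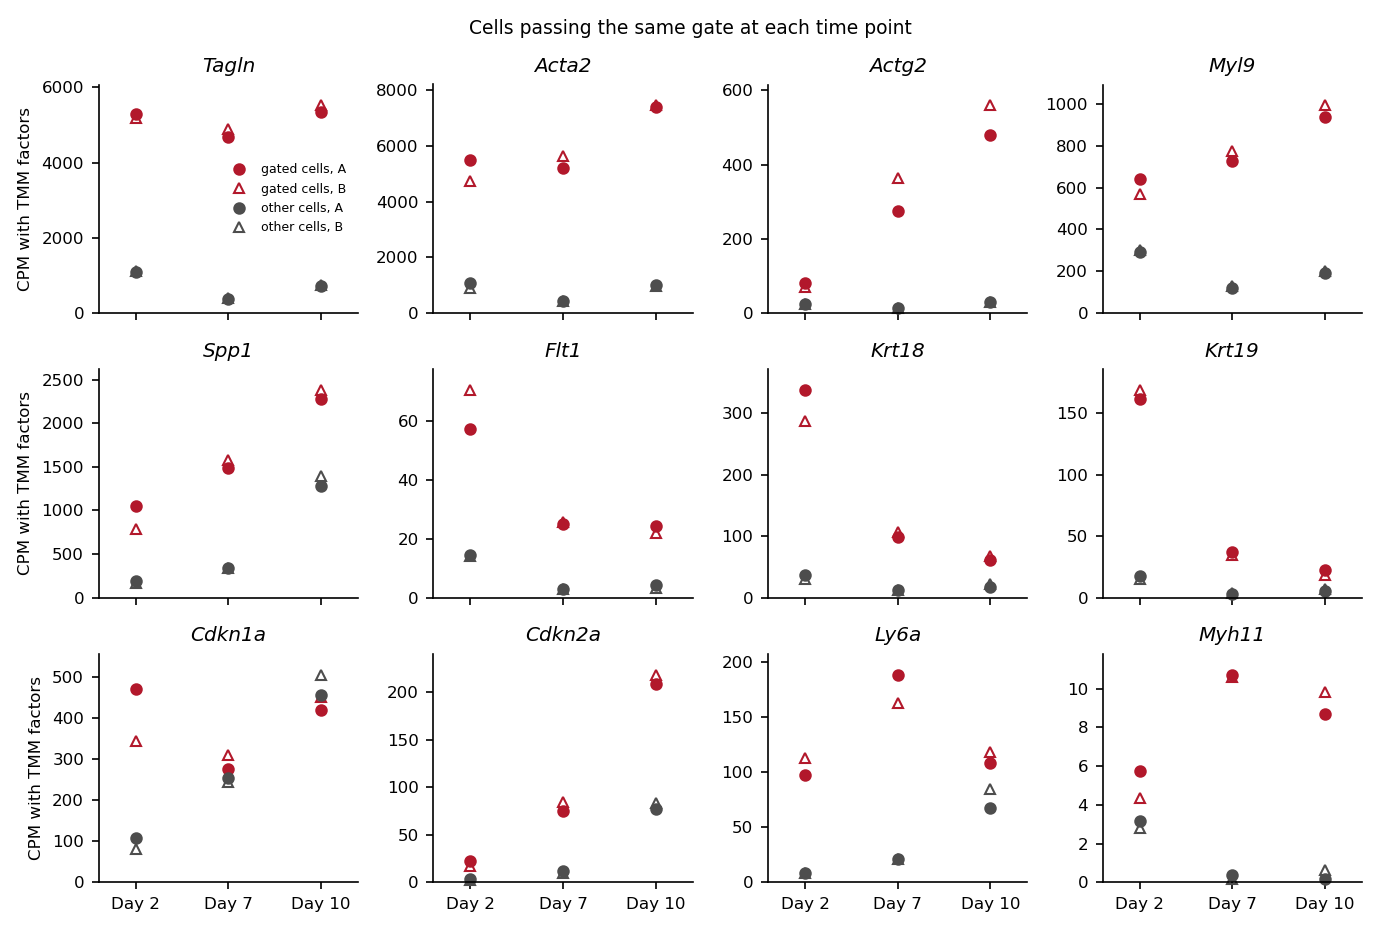
Level of 12 genes in gated and other cells of each library at Day 2, Day 7 and Day 10, as CPM with TMM scaling on linear axes (red, gated; grey, other; circles, replicate A; triangles, replicate B). Actg2 in gated cells goes from 81.2 and 70.0 CPM at Day 2 to 479 and 560 CPM at Day 10, and Krt18 from 338 and 288 to 62.0 and 67.3 CPM.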

How the data were processed

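UMIs were analysed from 6 single-cell libraries, replicates A and B of Day 2, Day 7 and Day 10 DID cultures. The authors aligned the reads to GRCm38 with Cell Ranger 6.1.2, which uses STAR, and deposited 1 matrix of raw UMI counts per library, before the filters of their Seurat 4.1.0 analysis. No normalization had been applied. Barcodes deposited were 11518 and 20188 at Day 2, and kept cells held 166797398 to 253858740 UMIs per library. Genes that failed edgeR's filter on low counts were not tested. Features that share a symbol were kept apart by gene ID, so that Aldoa is left out of its gene list.

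Cells were filtered and gated as the report states, and counts were summed per library and class, since cells are not replicates. The sums of all 6 libraries (n = 2 per time point) were fitted in edgeR 4.0.16 (R 4.3.3, filterByExpr, TMM, robust quasi-likelihood test, adjusted p under 0.05 by Benjamini-Hochberg over 18154 genes, without Cnn1 and S100a6). The common biological coefficient of variation was 0.0318, with 3 residual degrees of freedom. Gated and other sums come from the same library, which therefore entered as a block. Replicate letters pair nothing across time points. TMM factors at Day 2 were 1.01 and 1.03 in gated and 1.23 and 1.24 in other sums, and they move the median of all genes from -0.33 to -0.06. Data were also simulated from the sums of all 6 libraries, with no class difference except in genes changed in the Day 2 gated sums. Of 100 genes changed by 2-fold and 100 by 4-fold, 84% and 95% were recovered. Among 17956 genes tested there, 21 unchanged genes were called. The real sums differ in far more genes, so these rates need not hold for them.

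Like classes were fitted in the same way, and the change of the difference between time points was the interaction of class and day. Alternatives covered DESeq2 1.42.0, other limits, depth windows, thinning and leaving out each library. Shares of cells have Clopper-Pearson intervals. Named genes are those of the gene lists, the markers, and the largest 25 higher and 15 lower genes with at least 50 CPM (5 each way for like classes and time points), with Python 3.11.15 for tables and figures. The members, the gene lists and the tests were chosen with earlier results of these data known. Windows before gene starts came from a prepared set of RefSeq starts. That set had no entry for Tagln, Actg2 and Ccl2, which does not mean that RefSeq lacks them. Values of 2 genes of the lists are not reported here, though the counts and medians of the lists hold them.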

Additional observations from a re-analysis of the deposited data

Results flagged for a closer look

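Each of the following differences between gated and other cells changed between time points, by edgeR's quasi-likelihood test of the interaction on 2 libraries per time point. The values are log2 fold changes of the later time point minus Day 2, positive where the difference was more positive later on, whichever class moved. The cells of Day 7 and Day 10 pass the same gate and are not followed from those of Day 2, and the cause of a change was not tested.

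Prg4 and Scx turned from lower to higher in the gated cells. Prg4, lubricin, differed by -2.70 at Day 2, at 0.257 and 0.365 CPM in gated cells, and by 2.50 at Day 7, at 129 and 90.0 CPM, a change of 5.20 at Day 7 and of 3.72 at Day 10. The Day 2 call of Prg4 was lost without replicate A (-2.42) or replicate B (-2.95) and within the depth window, and with no S100a6 condition its difference was 0.53. Scx changed by 2.65 at Day 7, from -0.91 to 1.74, at 91.6 and 90.7 CPM in gated cells against 28.1 and 26.4 CPM. Crabp2, which binds retinoic acid, changed by 3.12 and Gas2 by 2.52 at Day 7.

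Actg2 changed by 2.81 at Day 7 and 2.48 at Day 10, and Des by 2.87 at Day 10, where it was at 58.8 and 62.7 CPM against 6.88 and 9.10. Tagln changed by 1.37 and 0.63, Flt1 by 0.95 and 0.46, and Spp1 by -1.58 at Day 10. At Day 10, Nnat changed by 3.14, at 5.15 and 5.37 CPM against 1.44 and 0.967, while at Day 2 it had been at 88.3 and 77.7 CPM against 181 and 156. Gsta4 changed by 2.63 but its difference at Day 10 was still -0.69, and the other cells went from 69.7 and 59.0 to 5.57 and 4.99 CPM.

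Others became more negative. Ccl2, the leading gene at Day 2, changed by -3.22 at Day 10, to 53.6 and 53.3 CPM against 34.0 and 34.7. Ly6a changed by -2.99, with the other cells rising to 67.3 and 84.9 CPM. Lgals3 changed by -3.13 at Day 7 and -3.07 at Day 10, and Col10a1, a gene of hypertrophic cartilage, by -3.05 at Day 10. Steap1 (-4.82), Dlk1 (-2.54), Xylt1 (-2.50) and Dcn (-2.42) changed at Day 7, and Sgms2 by -3.78 at Day 10.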

How the results depend on the processing

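Without TMM factors, genes higher in gated cells numbered 3008 and lower 8410 (2744 by at least 2-fold), and the changes against Day 2 were 6688 and 1740 at Day 7 and 5964 and 2147 at Day 10. With every cell thinned to 3000 UMIs, 1903 genes were higher (650 by at least 2-fold) and 2430 lower (1045), with 1904 and 890 changes at Day 7 and 1305 and 937 at Day 10. Within 20000 to 50000 UMIs, 851 genes were at least 2-fold higher and 2421 changes were negative at Day 10. Without the filter on low counts, 1733 genes were higher than in S100a6-only cells and 4532 changes were positive at Day 10. Without the library as a replicate block, 4849 genes were higher, 4865 lower, and 611 higher than in S100a6-only cells.

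The share of gated cells in replicates A and B was 4.62% and 2.00% with at least 10 Cnn1 UMIs, 5.60% and 6.46% with Cnn1 at 0.02%, 16.8% and 10.4% with no S100a6 condition, 3.69% and 1.62% with S100a6 at 0.2%, 8.82% and 4.27% in the depth window, and 8.80% and 4.38% with no limit on genes. With the limits of the study it was 1.80% in replicate B.

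Leaving out 1 library at a time gave 3707 to 5225 genes higher (1003 to 1309 by at least 2-fold) and 3981 to 5302 lower (1435 to 1889). Against Cnn1-only cells the ranges were 2170 to 3656 higher and 2318 to 3099 lower, both lowest without Day 2 replicate A. Against S100a6-only cells they were 645 to 1154 and 392 to 826, lowest without Day 2 replicate B, and against Tnmd-positive cells 2661 to 3920 and 2292 to 2951. Changes against Day 2 ranged from 2966 to 3917 positive and 2099 to 3619 negative at Day 7, and from 2659 to 3250 and 2399 to 3819 at Day 10, with the lowest negative counts without Day 2 replicate A.

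Of 433 named genes, 14 reversed, in 16 values, and the cause was not tested. These were, in the depth window, Aurka -0.31, Ccna2 -0.44, Ccnb1 -0.53, Cdk1 -0.33 and Plk1 -0.42. With no S100a6 condition they were Bambi -0.19, Irx5 0.35, Itga1 0.27, Meis2 0.74, Mylk 0.61, Prg4 0.53, Shox2 0.22 and Tbx2 0.64. Against cells with 0 Cnn1 UMIs they were Meis2 0.40 and Mylk 0.19, and without TMM Skil -0.16. Of the 10308 calls, 10056 were shared in direction with RLE factors, 8573 with DESeq2's Wald test and 7188 with the depth window. Depth limits low genes, since 3 UMIs of the gated cells correspond to 0.111 and 0.225 CPM.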
